A study of Mus musculus with 12 samples.

Results

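The 9 transcription factors described here, PU.1 (encoded by *Spi1*), IRF8, MAF, MEF2A, MEF2C, RUNX1, C/EBPα (*Cebpa*), C/EBPβ (*Cebpb*) and BHLHE41, were chosen by gene symbol and make up 9 of the 55401 genes counted in the series. All 9 had enough counts to be tested. The libraries came from CD45int CD11b+ cells that were sorted as microglia from the brains of male mice at day 3 after surgery, and each library pooled 3 to 4 hemispheres. The 4 groups compared held 3 libraries each, WT-Sham and WT-tFCI for the control genotype and miKO-Sham and miKO-tFCI for the knockout, where tFCI is a transient focal cerebral ischemia made by closing the left middle cerebral artery for 60 min and Sham is the operation without the closure. WT mice were CX3CR1 wt/wt: HDAC3 loxp/loxp and miKO mice were CX3CR1 CreER/wt: HDAC3 loxp/loxp. Tamoxifen was given for 5 days at 6 to 8 weeks of age, at least 1 month before surgery. Floxed *Hdac3* alleles were thus present in every group, whereas the Cre driven by *Cx3cr1*, which replaces 1 *Cx3cr1* allele, was present in miKO only. Replicate 1 of each group was sequenced in batch 1 and replicates 2 and 3 in batch 2.

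PU.1 is an ETS-family factor that binds enhancers across the macrophage genome and opens them for other factors, and macrophages and microglia do not form without it. IRF8 binds DNA together with PU.1, RUNX1 acts upstream of *Spi1* during blood formation, and C/EBPα and C/EBPβ drive myeloid genes in the bone marrow and in inflammation, respectively. MEF2A, MEF2C and MAF belong to the set of factors whose motifs mark microglial enhancers in the adult brain, and BHLHE41 is an E-box repressor of tissue macrophages. HDAC3 is a histone deacetylase that works in corepressor complexes on such enhancers.

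Promoter sequences from RefSeq (GRCm38.p6) were found for 7 of the 9 genes, in 11 windows of 250 bases before a transcription start. No entry was used for *Spi1* and *Maf*. Windows of 5 genes are printed on the strand of the gene, as examples of the patterns described below: *Mef2c* and *Bhlhe41*, which were lower in miKO-tFCI than in WT-tFCI, *Irf8* and *Cebpa*, which were higher in miKO-Sham than in WT-Sham, and *Cebpb*, which was higher after tFCI. Capitals mark a match to a motif, and the part of the *Bhlhe41* window inside an annotated exon (138 bases) was left out. The windows are *Mef2c* chr13:83503784-83504033 (+), *Bhlhe41* chr6:145865559-145865670 (-), *Irf8* chr8:120736108-120736357 (+), *Cebpa* chr7:35119043-35119292 (+) and *Cebpb* chr2:167688665-167688914 (+).
Mef2c: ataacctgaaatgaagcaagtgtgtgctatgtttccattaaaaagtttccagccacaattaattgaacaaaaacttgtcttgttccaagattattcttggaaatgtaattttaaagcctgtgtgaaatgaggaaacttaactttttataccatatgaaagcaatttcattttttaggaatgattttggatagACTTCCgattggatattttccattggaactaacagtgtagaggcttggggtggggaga
Bhlhe41: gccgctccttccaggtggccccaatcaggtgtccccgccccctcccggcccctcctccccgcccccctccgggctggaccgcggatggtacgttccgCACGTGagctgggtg
Irf8: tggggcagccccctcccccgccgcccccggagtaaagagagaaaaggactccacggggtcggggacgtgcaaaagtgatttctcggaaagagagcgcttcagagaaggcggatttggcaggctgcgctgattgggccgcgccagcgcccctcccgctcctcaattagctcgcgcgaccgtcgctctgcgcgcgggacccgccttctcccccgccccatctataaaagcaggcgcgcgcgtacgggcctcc
Cebpa: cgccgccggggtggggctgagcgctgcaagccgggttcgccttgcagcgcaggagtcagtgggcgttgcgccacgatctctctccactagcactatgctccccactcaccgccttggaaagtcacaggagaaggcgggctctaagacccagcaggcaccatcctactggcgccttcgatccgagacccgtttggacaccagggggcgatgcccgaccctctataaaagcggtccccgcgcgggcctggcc
Cebpb: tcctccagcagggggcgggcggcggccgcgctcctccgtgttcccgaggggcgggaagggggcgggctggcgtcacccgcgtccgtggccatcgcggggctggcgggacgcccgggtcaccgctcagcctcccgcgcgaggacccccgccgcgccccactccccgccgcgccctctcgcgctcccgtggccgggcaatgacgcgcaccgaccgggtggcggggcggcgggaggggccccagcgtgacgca

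For 5 motifs, matches were searched on both strands of the 250-base windows. GGAAGT, an ETS core with the flank that PU.1 prefers, occurred in 19.7% of all 32851 promoters, TGTGGT (RUNX) in 14.0%, TTGCNNAA (C/EBP) in 9.56%, CACGTG (E-box, the site of BHLHE41) in 6.02% and TGCTGA (MAF) in 16.1%. Among the 11 windows of these genes, the ETS motif was found in the *Mef2c* window shown, on the reverse strand at position -58 from the start. The E-box was found in *Bhlhe41* at position -153 and in a *Runx1* window at position -71. The last 75 bases of that *Runx1* window, which hold the match, lie inside an annotated exon. The MAF motif was found in a second *Irf8* window at position -157 and in another *Mef2c* window at position -104. No match overlapped another, and the RUNX and C/EBP motifs were not found in these windows. The windows of *Cebpb* and *Mef2c* lay far apart in base composition, with 81.6% and 33.6% G and C against a median of 52.4% over all promoters.

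Each library held between 7697864 and 9452222 counts on genes, and counts of the 9 factors ranged from 393 (*Bhlhe41* in a miKO-tFCI library) to 8280 (*Irf8* in a miKO-Sham library), so counting error was small for all of them. Levels are given as CPM, counts scaled to a common library size after TMM normalization. *Hdac3* was lower in miKO in each surgery, with a log2 difference of -0.81 ± 0.17 (SE, adjusted p = 0.00223) between Sham groups and -0.71 ± 0.16 (adjusted p = 0.0113) between tFCI groups, and reads remained in every miKO library (20.9 to 36.0 CPM). All 11 microglial markers were detected in every group. Their summed level had a median of 39277 CPM in WT-Sham, 30535 in miKO-Sham, 26145 in WT-tFCI and 18422 in miKO-tFCI. The ranges of this sum did not overlap between the WT-tFCI and miKO-tFCI libraries. The sum includes *Cx3cr1*, of which miKO has 1 replaced allele. *Cx3cr1* measured 3291 to 4373 CPM in WT-Sham, 1052 to 1446 in miKO-Sham, 1450 to 1579 in WT-tFCI and 291 to 544 in miKO-tFCI. *Fcrls* of this list was higher in miKO-Sham (5006 to 5394 CPM) than in WT-Sham (2734 to 3327). The sum of 10 monocyte markers ranged from 38.4 to 105 CPM in WT-Sham and from 76.4 to 199.9 in miKO-Sham. It ranged from 112 to 285 in WT-tFCI and from 478 to 758 in miKO-tFCI. The sums of 10 border macrophage markers (410.4 to 953) and 10 neutrophil markers (756 to 1010) were also high in miKO-tFCI. *Chil3* (239 and 311 CPM) and *F13a1* (170.3 and 323) made up most of the monocyte sum in replicates 2 and 3 of miKO-tFCI. In these libraries *Plac8* (5.53 and 2.72 CPM) was not above WT-tFCI (3.66 to 15.9), whereas *Ccr2* (18.5 and 22.4 CPM) was above the same replicates of WT-tFCI (3.35 and 3.17). *F13a1* also counts in the border macrophage sum. The neutrophil gene *Ly6g* stayed at or below 0.74 CPM in every library, but other genes of its list differed between the tFCI groups. *S100a8* measured 264 to 333 CPM in miKO-tFCI against 54.9 to 64.8 in WT-tFCI, and *Mmp8* 7.92 to 9.81 against 0.24 to 2.27. The ranges of *Retnlg* and *Mmp9* overlapped between these groups. The sum of 7 endothelial markers ranged from 12.3 to 30.7 CPM in the Sham groups, from 62.6 to 176 in WT-tFCI and from 107 to 292 in miKO-tFCI. The sum of 6 astrocyte markers lay between 108 and 264 CPM in all libraries except replicate 1 of miKO-tFCI (525 CPM). The sum does not show the rise of *Gfap* on this list, which was higher in every tFCI library than in any Sham library. *Gfap* measured 0.12 to 0.45 CPM in WT-Sham and 29.1 to 79.4 in WT-tFCI. In miKO it measured 1.11 to 2.82 CPM in Sham and 88.1 to 251 in tFCI, with replicate 1 the highest. The sum of 9 B cell markers was lower after tFCI in each genotype. It was 270.4 to 340.0 CPM against 429 to 529 in WT, and 154 to 163 against 331 to 435 in miKO. The sum of 9 dendritic markers was lower as well (medians of 921 against 1825 CPM in WT and 343 against 708 in miKO). That fall was carried by the microglial gene *Siglech* on the list. It measured 1725 to 1808 CPM in WT-Sham, 831 to 936 in WT-tFCI, 675 to 889 in miKO-Sham and 246 to 286 in miKO-tFCI. In miKO, *Ccr7* of the same list rose (1.11 to 4.87 CPM in Sham, 36.2 to 239 in tFCI). *Xcr1* did not (1.54 to 4.02 CPM in Sham, 1.34 to 1.98 in tFCI). The sum of 7 oligodendrocyte markers ranged from 150.0 to 286 CPM, and those of 8 T cell and 8 neuron markers reached at most 11.3 and 16.9 CPM in any library. Replicate 1 of WT-Sham held more neutrophil marker reads (817 CPM) than the other two libraries of that group (79.2 and 50.8 CPM). By chi-square per degree of freedom, pairs of libraries within groups ranged from 2.83 to 83.2. The lowest was for replicates 1 and 2 of miKO-Sham, followed by replicates 2 and 3 of WT-tFCI (3.70) and of WT-Sham (5.13). By correlation of log2 CPM the miKO-Sham pair (0.976) was less alike than those 2 pairs (0.980 and 0.981). Replicates 1 and 2 of miKO-Sham are labelled as different batches, and they differed from replicate 3 at 38.8 and 41.8. Whether they share a pool of cells cannot be told from the labels. They were kept as separate samples because they still differed by more than counting error, and each was left out in turn, with the calls that this changed given beside the results. In pooled bulk libraries, fewer cells of a type and less RNA per cell cannot be told apart.

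**Figure D1:**
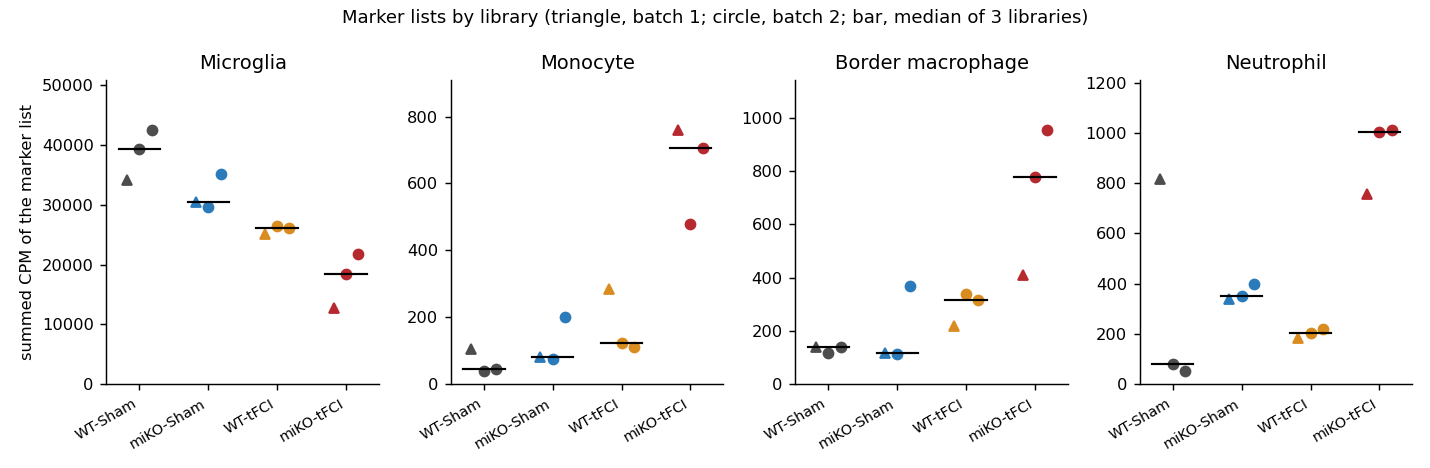
Summed CPM of 4 marker lists in each of the 12 libraries, with triangles for batch 1, circles for batch 2 and a bar at the median of 3 libraries. The microglial sum is lowest (12724 to 21695 CPM) and the monocyte sum highest (478 to 758 CPM) in miKO-tFCI.

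Levels between genes were compared per kb of annotated exon. In WT-Sham, *Cebpb* (177 CPM per kb), *Spi1* (152) and *Irf8* (103) were the most abundant of the 9, at the 98.8th, 98.6th and 97.8th percentile of all tested genes. *Cebpa* followed at 77.4 CPM per kb. *Mef2a* (42.1), *Maf* (40.2) and *Mef2c* (39.3) lay close together, whereas *Bhlhe41* (13.3) and *Runx1* (11.2) were the least abundant, at the 78.6th and 75.4th percentile. In miKO-Sham, *Spi1* (170.0 CPM per kb) and *Cebpa* (157) took the first and second place and *Cebpb* (136) the fourth. In miKO-tFCI, *Cebpb* (223) was again the most abundant, and *Maf* (10.6) had moved from the 93.4th percentile in WT-Sham to the 73.4th. The lowest placed was *Bhlhe41* in miKO-tFCI, at percentile 65.3. These ranks have no test.

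**Figure D2:**
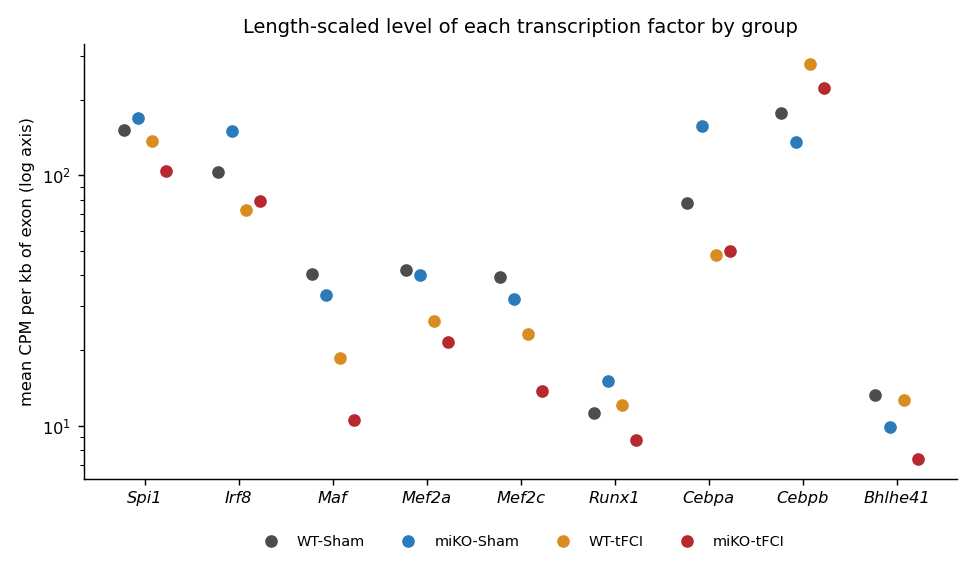
Mean level of the 9 transcription factors in CPM per kb of exon on a log axis, 1 point per group of 3 libraries. *Cebpb*, *Spi1* and *Irf8* lie highest in WT-Sham (103 to 177), *Runx1* and *Bhlhe41* lie at the bottom in every group, and *Maf* (10.6) comes close to them in miKO-tFCI.

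*Spi1* (ENSMUSG00000002111.8, chr2:91082390-91115756, + strand) encodes PU.1 itself. It measured 433, 415 and 381 CPM in the WT-Sham libraries and 436, 454 and 485 CPM in miKO-Sham. After tFCI it measured 364, 361 and 385 CPM in WT and 279, 310.4 and 256 CPM in miKO. The miKO-tFCI libraries were thus below all others, the WT-Sham and WT-tFCI ranges overlapped, and the Sham groups were separated by a gap of only a few CPM. Group means were 409.6 ± 26.6 (SD, n = 3) in WT-Sham, 458 ± 24.8 in miKO-Sham, 369.6 ± 13 in WT-tFCI and 282 ± 27.5 in miKO-tFCI.

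*Irf8* (ENSMUSG00000041515.10, chr8:120736358-120756694, + strand), the DNA-binding partner of PU.1, measured 722, 745 and 712 CPM in WT-Sham. In miKO-Sham it measured 1071, 1037 and 1061 CPM, above every other library. After tFCI the WT libraries held 485, 524 and 526 CPM and the miKO libraries 445, 621 and 610.1 CPM. Both tFCI groups lay below both Sham groups and overlapped with each other, and replicate 1 was the low library of miKO-tFCI.

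*Maf* (ENSMUSG00000055435.6, chr8:115682942-115707794, - strand) encodes c-MAF, a bZIP factor of tissue macrophages. It measured 436, 288 and 269 CPM in WT-Sham and 287, 289 and 247 CPM in miKO-Sham, so that these groups overlapped. After tFCI the levels were 178, 142 and 142 CPM in WT and 87.7, 94.0 and 79.2 CPM in miKO. Neither tFCI group overlapped with any other group, and miKO-tFCI was the lowest. *Maf* shares 440 exon bases with *Gm15655* on the opposite strand, and the counts there cannot be divided between the 2 genes without strand information.

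MEF2A and MEF2C are MADS-box factors that share a DNA motif. *Mef2a* (ENSMUSG00000030557.17, chr7:67231163-67372858, - strand) measured 612, 603 and 637 CPM in WT-Sham and 622, 602 and 539 CPM in miKO-Sham. Its tFCI libraries held 362, 389 and 403 CPM in WT and 221, 369.7 and 358 CPM in miKO. All 6 tFCI libraries lay below all 6 Sham libraries, and genotypes overlapped within each surgery. *Mef2c* (ENSMUSG00000005583.16, chr13:83504034-83667080, + strand) measured 593, 611 and 648 CPM in WT-Sham and 477, 464 and 564 CPM in miKO-Sham. After tFCI it measured 337, 382 and 372 CPM in WT and 145, 249 and 258 CPM in miKO. The 4 groups of *Mef2c* did not overlap, with WT-Sham highest, then miKO-Sham, then WT-tFCI and last miKO-tFCI, and the low library of miKO-tFCI was again replicate 1 for both genes.

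RUNX1, which binds DNA with CBFβ, is expressed through myeloid development. *Runx1* (ENSMUSG00000022952.17, chr16:92601466-92826149, - strand) measured 159.6, 122 and 124 CPM in WT-Sham and 216, 197 and 129 CPM in miKO-Sham. Its tFCI libraries held 137, 134 and 164 CPM in WT and 80.7, 127 and 108 CPM in miKO. The WT-Sham, miKO-Sham and WT-tFCI ranges overlapped, and replicate 3 of miKO-Sham lay with the WT libraries rather than with replicates 1 and 2.

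C/EBPα and C/EBPβ share a bZIP domain and a DNA motif. *Cebpa* (ENSMUSG00000034957.10, chr7:35119293-35121928, + strand) measured 289, 167 and 157 CPM in WT-Sham and 489, 480.2 and 274 CPM in miKO-Sham. Its tFCI libraries held 117, 129.6 and 135 CPM in WT and 94.4, 155 and 146 CPM in miKO. Replicate 3 of miKO-Sham was below replicate 1 of WT-Sham, so the Sham groups overlapped, and the spread of *Cebpa* in miKO-Sham (SD of 122 CPM around a mean of 414) was wide. *Cebpb* (ENSMUSG00000056501.3, chr2:167688915-167690418, + strand) measured 354, 217 and 226 CPM in WT-Sham and 206, 206 and 202 CPM in miKO-Sham. Its tFCI libraries held 358, 429 and 472 CPM in WT and 359, 321 and 326 CPM in miKO. Replicate 1 of WT-Sham, the library with the high neutrophil sum, almost reached the lowest WT-tFCI library. *Cebpb* shares 312 of its 1504 exon bases with *Tmem189* on the opposite strand. That gene held 1253 to 2259 counts against 1482 to 3871 for *Cebpb*, so the counts of *Cebpb* are uncertain to that extent.

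*Bhlhe41* (ENSMUSG00000030256.11, chr6:145858243-145865558, - strand) measured 112, 80.7 and 75.9 CPM in WT-Sham and 62.6, 74.5 and 62.6 CPM in miKO-Sham. Its tFCI libraries held 88.9, 81.1 and 85.3 CPM in WT and 45.2, 54.9 and 48.6 CPM in miKO. The WT-tFCI libraries lay within the range of WT-Sham, the miKO-Sham libraries just below it, and the miKO-tFCI libraries below all others. It shares 1280 exon bases with *Gm43909* on the opposite strand, so that its counts are uncertain to that extent, although that gene held 54 to 151 counts against 393 to 930 for *Bhlhe41*.

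**Figure D3:**
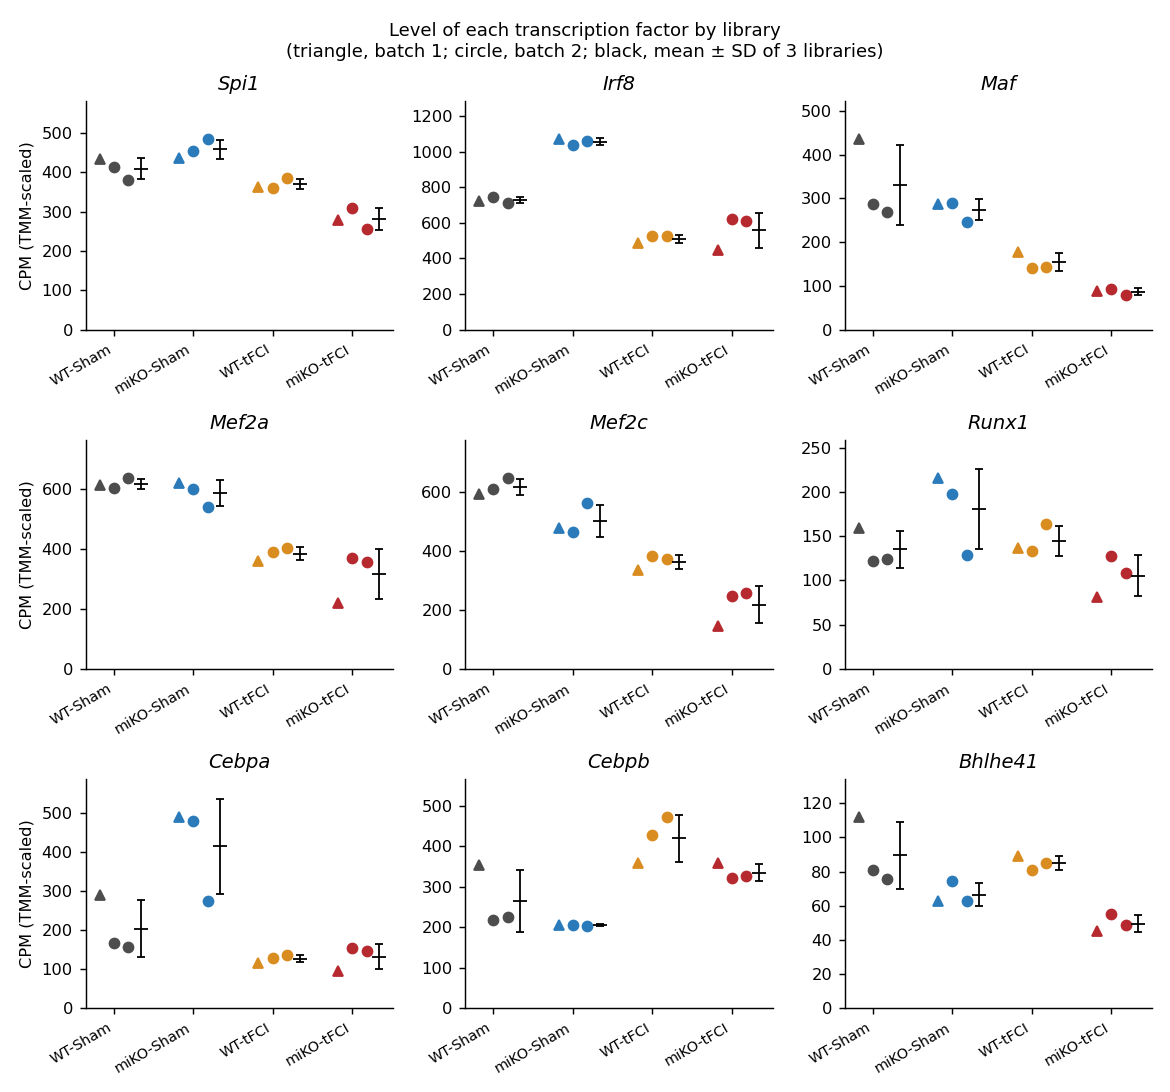
Level of each of the 9 transcription factors in CPM in the 12 libraries by group, with triangles for batch 1, circles for batch 2, and the mean ± SD of 3 libraries in black. *Irf8* is highest in miKO-Sham (1037 to 1071 CPM), *Maf* steps down to 79.2 to 94.0 CPM in miKO-tFCI, and *Cebpb* is higher in both tFCI groups.

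The stroke response of WT microglia was read from WT-tFCI vs. WT-Sham. MAF and both MEF2 factors were lower after tFCI: *Maf* fell by 1.09 ± 0.15 on the log2 scale (SE, edgeR adjusted p = 3.37e-05), *Mef2c* fell by 0.77 ± 0.16 (adjusted p = 0.0013) and *Mef2a* fell by 0.69 ± 0.16 (adjusted p = 0.00311). *Irf8* fell by 0.51 ± 0.14 (adjusted p = 0.00786). *Cebpb* was the gene that rose, by 0.68 ± 0.17 (adjusted p = 0.00476). *Spi1* (-0.15, 95% confidence interval -0.42 to 0.12), *Runx1* (0.10, -0.32 to 0.53), *Cebpa* (-0.66, -1.27 to -0.06, adjusted p = 0.0784) and *Bhlhe41* (-0.07, -0.38 to 0.25) did not pass the test. In all, 1 of 9 was higher and 4 were lower, where 23.3% of all 16451 tested genes were higher and 15.5% lower, and the median log2 fold change was -0.51 over the 9 genes and 0.02 over all genes. *Maf*, *Mef2a*, *Mef2c* and *Irf8* fell in both batches, but *Cebpb* differed by 0.02 in batch 1 and by 1.02 in batch 2. *Cebpb* also lost its call without replicate 2 or 3 of WT-Sham or replicate 3 of WT-tFCI (adjusted p of 0.0616, 0.0534 and 0.0534, respectively). Without replicate 1 of WT-Sham, the library with the high neutrophil sum, 1 factor was again higher and 4 were lower.

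In miKO, tFCI vs. Sham called every one of the 9 genes. *Maf* fell by 1.65 ± 0.15 (SE, adjusted p = 6.85e-07), *Cebpa* by a log2 change of -1.63 ± 0.28 (adjusted p = 0.000612) and *Mef2c* by one of -1.24 ± 0.16 (adjusted p = 2.09e-05). *Irf8* (-0.93 ± 0.14, adjusted p = 6.84e-05), *Mef2a* (-0.91 ± 0.16, adjusted p = 0.000316), *Runx1* (-0.77 ± 0.20, adjusted p = 0.00653) and *Spi1* (-0.70 ± 0.13, adjusted p = 0.000431) were lower as well. *Bhlhe41* was lower by the smallest margin (-0.43 ± 0.15, adjusted p = 0.0346). *Cebpb* rose by 0.71 ± 0.17 (adjusted p = 0.00309), and its libraries did not overlap between the groups. Thus 8 of 9 were lower, against 17.8% of all tested genes, and 1 was higher, against 24.5%, with a median log2 fold change of -0.91 over the 9 genes and 0.03 over all genes. All 9 kept their direction within each batch. *Runx1* missed the threshold in batch 2 alone (-0.50, adjusted p = 0.0542), and *Bhlhe41* missed it when replicate 2 of miKO-Sham or replicate 1 or 3 of miKO-tFCI was left out (adjusted p of 0.134, 0.116 and 0.0542), with library totals alone as scaling (-0.30, adjusted p = 0.107) and with only the groups compared in the fit (adjusted p = 0.0616). The monocyte, border macrophage and neutrophil marker sums were higher and the microglial sum lower in the same comparison, and their part in the fall of these factors was not tested. Without replicate 1 of miKO-tFCI, which held the most *Ly6c2* (68.0 CPM against 11.2 and 11.4) and the lowest *Mef2a*, *Mef2c*, *Irf8* and *Runx1* of its group, 7 factors were lower and 1 was higher.

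Between genotypes without stroke (miKO-Sham vs. WT-Sham), IRF8 and C/EBPα were higher in miKO. *Irf8* rose by 0.54 ± 0.14 on the log2 scale (SE, adjusted p = 0.0104), with every miKO-Sham library above every WT-Sham library, and *Cebpa* rose by 1.03 ± 0.28 (adjusted p = 0.0212), with libraries that overlapped in CPM. These were 2 of 9, where 9.74% of all tested genes were higher and 8.15% lower. *Runx1* (0.42, 95% confidence interval -0.01 to 0.84), *Spi1* (0.16, -0.11 to 0.43), *Mef2a* (-0.07, -0.41 to 0.27), *Maf* (-0.25, -0.56 to 0.06), *Mef2c* (-0.30, -0.63 to 0.03), *Cebpb* (-0.36, -0.72 to -0.0043) and *Bhlhe41* (-0.42, -0.74 to -0.10, adjusted p = 0.0694) did not pass the test. Neither call held in every fit with 1 library left out, and with replicate 1 of miKO-Sham left out neither gene passed. *Irf8* missed the threshold without replicate 2 or 3 of WT-Sham or replicate 1 of miKO-Sham (log2 differences of 0.46 to 0.52, adjusted p up to 0.0706). *Cebpa* missed it without replicate 2 or 3 of WT-Sham or replicate 1 or 2 of miKO-Sham (0.86 to 0.91, adjusted p up to 0.104). Calls were also gained with 1 library left out. *Bhlhe41* was called lower without replicate 3 of WT-Sham, replicate 2 of miKO-Sham or replicate 1 of miKO-tFCI (adjusted p of 0.0458, 0.0466 and 0.0452, respectively). *Runx1* was called higher without replicate 3 of miKO-Sham (adjusted p = 0.035). The choice of scaling also mattered here. With library totals alone, the median of all genes moved to -0.23 and the 1602 higher and 1341 lower genes became 974 and 3107. *Cebpa* was then the gene that rose, *Irf8* lost its call (0.27, adjusted p = 0.122), *Maf*, *Mef2c*, *Cebpb* and *Bhlhe41* were called lower, and *Spi1* turned from 0.16 to -0.11, which is still above the median of all genes on that scale.

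After stroke (miKO-tFCI vs. WT-tFCI), 3 of the factors were lower in miKO and 0 were higher. *Maf* fell by 0.81 ± 0.15 (SE, adjusted p = 0.00266), *Bhlhe41* by a log2 change of -0.78 ± 0.15 (adjusted p = 0.00435) and *Mef2c* by one of -0.77 ± 0.16 (adjusted p = 0.0062), each without overlap between the groups and in both batches. Among all tested genes 5.54% were lower and 4.39% higher, and the median log2 fold change was -0.39 over the 9 genes and 0.04 over all genes. *Spi1* was lower in every miKO-tFCI library than in any WT-tFCI library, but its difference of -0.39 (95% confidence interval -0.66 to -0.12) had an adjusted p of 0.0642, and it passed with DESeq2. *Runx1* (-0.46, -0.89 to -0.03), *Cebpb* (-0.33, -0.69 to 0.02), *Mef2a* (-0.30, -0.64 to 0.04), *Irf8* (0.12, -0.17 to 0.41) and *Cebpa* (0.06, -0.54 to 0.66) did not pass. DESeq2 also called 0 higher, and 5 of 9 had an unadjusted p under 0.05 with edgeR, against 25.7% of all tested genes. The calls on *Maf*, *Bhlhe41* and *Mef2c* held when any 1 library was left out, replicate 1 of miKO-tFCI included. The monocyte marker sum was higher (478 to 758 CPM against 112 to 285) and the microglial sum lower in miKO-tFCI, and their part in these differences was not tested. With library totals alone as scaling, the 723 higher and 912 lower genes became 529 and 1331, and *Spi1* and *Runx1* joined the 3 factors called lower.

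**Figure D4:**
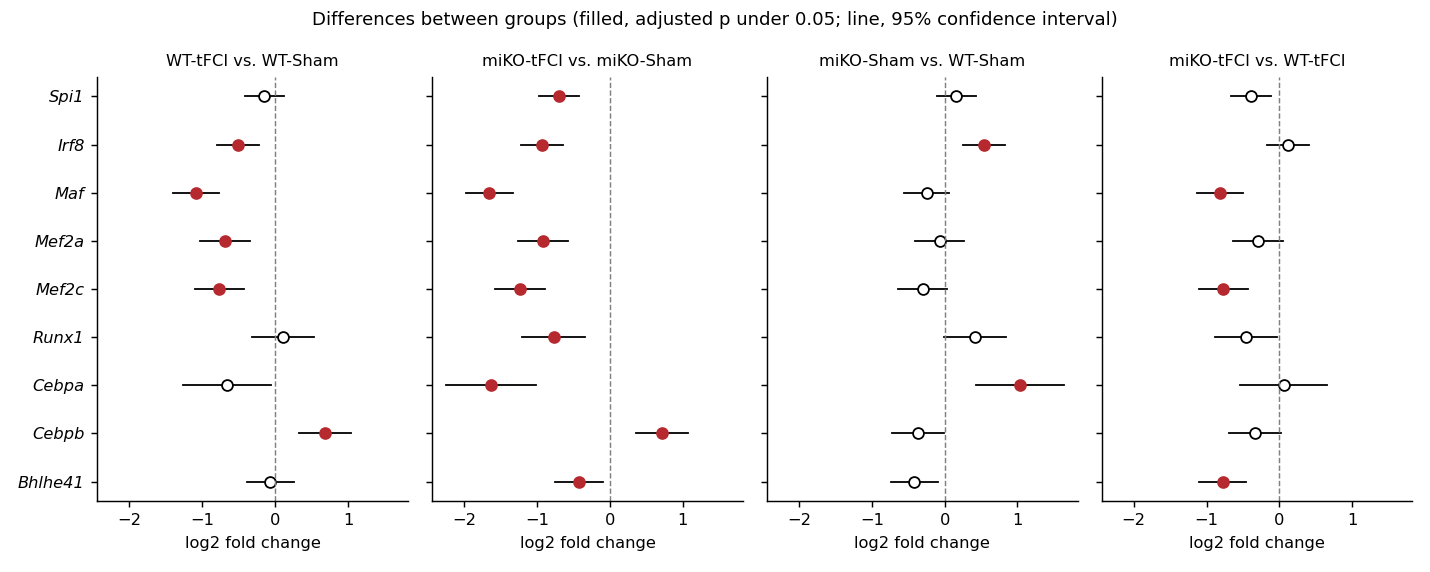
Log2 fold change of the 9 factors in 4 comparisons, as points with a 95% confidence interval, filled where the adjusted p is under 0.05. All 9 points are filled in miKO-tFCI vs. miKO-Sham, and *Maf*, *Mef2c* and *Bhlhe41* are filled in miKO-tFCI vs. WT-tFCI (-0.81, -0.77 and -0.78).

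Whether the tFCI response differed between genotypes was tested as an interaction. edgeR called 0 of 9 genes, with 5 of 9 (*Spi1*, *Irf8*, *Maf*, *Runx1* and *Cebpa*) at an unadjusted p under 0.05 (17.6% of all tested genes), and DESeq2 called 1, *Spi1* (adjusted p = 0.0267). A negative interaction term means that the log2 change after tFCI was more negative, or less positive, in miKO than in WT. For a gene that fell in both genotypes, it is a larger fall in miKO. The terms were -0.97 ± 0.39 (SE) for *Cebpa*, -0.87 ± 0.28 for *Runx1*, -0.57 ± 0.21 for *Maf* and -0.55 ± 0.18 for *Spi1* (adjusted p of 0.215, 0.111, 0.161 and 0.112). *Mef2c* (-0.47), *Irf8* (-0.42), *Bhlhe41* (-0.36) and *Mef2a* (-0.23) were also negative and *Cebpb* (0.03, 95% confidence interval -0.48 to 0.53) was near 0. Over all tested genes 1.26% were called positive and 2.68% negative (208 and 441, which became 290 and 292 with library totals alone). *Spi1*, *Runx1*, *Cebpa* and *Bhlhe41* were called in miKO and not in WT after tFCI, but for none of these 4 did the difference pass the edgeR test.

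The 4 lists of related genes were counted in the same way, with CPM given as mean ± SD of 3 libraries and log2 changes ± SE. Their counts stand against the shares of all tested genes called higher and lower, which were 23.3% and 15.5% after tFCI in WT, 24.5% and 17.8% after tFCI in miKO, 9.74% and 8.15% between Sham groups and 4.39% and 5.54% between tFCI groups. Relatives of the 9 factors (23 of 27 listed genes were tested, from the ETS, IRF, MAF, MEF2, RUNX, C/EBP and BHLHE families) did not follow a single direction. In WT-tFCI vs. WT-Sham 5 were higher and 8 lower, and in miKO-tFCI vs. miKO-Sham 6 were higher and 12 lower, so that the higher calls lay near the share of all genes. *Bhlhe40*, the close relative of *Bhlhe41* that responds to many stimuli, rose from 1.31 ± 0.88 CPM in WT-Sham to 32.4 ± 24.8 in WT-tFCI (adjusted p = 2.23e-07) and from 2.48 ± 0.38 in miKO-Sham to 62.9 ± 61.0 in miKO-tFCI (adjusted p = 2.61e-07). Replicate 1 carried both tFCI means of *Bhlhe40*, with 61.0 CPM against 18.6 and 17.5 in WT and 133 CPM against 24.1 and 31.3 in miKO, and all tFCI libraries were above all Sham libraries. *Irf7*, the factor that amplifies type I interferon, rose from 12.5 ± 1.59 to 88.9 ± 23.5 CPM in WT and from 29.1 ± 3.31 to 89.6 ± 2.68 in miKO, and it was also higher in miKO-Sham than in WT-Sham (1.22 ± 0.18 on the log2 scale, adjusted p = 0.000177). *Fli1*, an ETS factor of blood and endothelial cells, fell by 0.80 ± 0.17 in WT and by a log2 change of -1.01 ± 0.17 in miKO. *Cebpg*, a C/EBP that dimerizes with the others, was higher in miKO-Sham than in WT-Sham, rising from 111 ± 17.9 to 227 ± 25.5 CPM (1.04 ± 0.16, adjusted p = 0.000179), and *Irf4*, the closest relative of *Irf8*, fell from 5.14 ± 1.06 to 0.68 ± 0.51 CPM (-2.93 ± 0.54, adjusted p = 0.00108). Between Sham groups 4 relatives were higher and 4 lower, with a median of 0.10 that became -0.18 with library totals alone. Between tFCI groups 1 was higher and 3 lower in miKO, among them the small MAF genes *Maff* (40.2 ± 2.51 against 14.4 ± 4.46 CPM, adjusted p = 0.00019) and *Mafk* (66.4 ± 12.4 against 43.6 ± 10.7 CPM, adjusted p = 0.00874).

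Partners and regulators of the 9 factors (14 of 16 tested) moved in both directions after tFCI, with 3 higher and 7 lower in WT and 4 higher and 9 lower in miKO. *Jun*, whose AP-1 protein binds next to PU.1 at many enhancers, fell from 5812 ± 954 to 1633 ± 191 CPM in WT (adjusted p = 2.72e-07) and from 2975 ± 594 to 843 ± 187 CPM in miKO (adjusted p = 3.67e-07). *Egr1*, a zinc finger factor of monocyte differentiation, fell by 1.23 ± 0.17 on the log2 scale after tFCI in WT and was lower in miKO than in WT in both surgeries (-1.36 ± 0.17 in Sham and -1.21 ± 0.17 in tFCI). *Id2*, an inhibitor of bHLH factors, rose from 385 ± 53.2 to 997 ± 154 CPM in WT after tFCI and was lower in miKO in both surgeries, at 134 ± 21.3 CPM in Sham and 338 ± 8.70 CPM in tFCI. *Trib1*, which targets C/EBPα protein for degradation, rose by 0.45 ± 0.13 after tFCI in WT (adjusted p = 0.0111). Between Sham groups 1 partner was higher, *Lmo2* (0.64 ± 0.14, adjusted p = 0.00411), and 5 were lower in miKO, whereas 0 and 9 were called with library totals alone. Between tFCI groups 0 were higher and 6 lower in miKO.

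Other factors of microglial identity (20 of 21 tested) were mostly lower after tFCI, as MAF and the MEF2 factors were: 14 were lower and 3 higher in WT, and 16 were lower and 3 higher in miKO, with medians of -0.75 and -0.98. *Sall1*, the zinc finger factor that marks microglia among macrophages, fell from 359 ± 18.9 to 157 ± 3.98 CPM in WT (adjusted p = 2.08e-05) and from 263 ± 18.1 to 92.4 ± 23.3 CPM in miKO (adjusted p = 2.39e-06). *Klf4* fell from 202 ± 78.0 to 88.5 ± 14.9 CPM in WT and from 155 ± 24.2 to 60.2 ± 19.2 CPM in miKO. *Nr4a1*, an orphan nuclear receptor that responds to activation, rose from 149.9 ± 32.3 to 507 ± 55.4 CPM in WT and from 69.5 ± 4.96 to 137 ± 72.5 CPM in miKO, where replicate 1 (220.3 CPM) was above the others (96.3 and 93.4). Between tFCI groups 8 were lower and 0 higher in miKO, led by *Nr4a1* (-1.98 ± 0.21, adjusted p = 3.4e-05), *Sall3* (from 91.9 ± 2.56 to 41.4 ± 8.26 CPM, adjusted p = 0.000201) and *Klf2* (from 712 ± 40.1 to 356 ± 62.7 CPM, adjusted p = 0.00183), and DESeq2 called 1 higher and 11 lower. Between Sham groups 6 were lower and 1 higher, including *Tcf4* (-0.98 ± 0.12, adjusted p = 3.02e-05), and 12 and 0 were called with library totals alone. *Sall1* also stands in the microglial marker list, whose sum fell in the same order of groups.

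Classical PU.1 target genes (25 of 25 tested) moved in both directions, and *Spi1* was called in only 1 of the 4 comparisons. In WT-tFCI vs. WT-Sham 11 were higher and 4 lower, and in miKO-tFCI vs. miKO-Sham 4 were higher and 9 lower. *Csf1r*, the receptor that microglia need for survival, fell from 7221 ± 1260 to 4672 ± 355 CPM in WT (adjusted p = 0.0106) and from 7763 ± 339 to 3719 ± 1189 CPM in miKO (adjusted p = 0.000125). *Csf3r*, the G-CSF receptor, fell by 0.68 ± 0.13 in WT and by a log2 change of -1.55 ± 0.13 in miKO. *Msr1*, a scavenger receptor, rose from 4.31 ± 1.85 to 146 ± 54.6 CPM in WT and from 18.9 ± 4.91 to 382 ± 235 CPM in miKO. Between Sham groups 12 were higher and 1 lower in miKO (7 and 2 with library totals alone). Lysozyme (*Lyz2*) rose from 516 ± 128 to 8228 ± 1050 CPM (4.01 ± 0.23 on the log2 scale, adjusted p = 1.29e-08), and *Il1b*, the cytokine IL-1β, from 40.6 ± 9.11 to 327 ± 45.7 CPM (3.03 ± 0.26, adjusted p = 1.99e-06), while *Spi1* itself did not pass the test. Between tFCI groups 3 were higher and 4 lower in miKO (3 and 8 with library totals alone): *Lyz2* (2.43 ± 0.22, adjusted p = 4.03e-06), the NADPH oxidase subunit gene *Cybb* (0.65 ± 0.16, adjusted p = 0.019) and the protease gene *Ctss* (0.70 ± 0.18, adjusted p = 0.0202) were higher, and the GM-CSF receptor gene *Csf2ra* (-0.75 ± 0.14, adjusted p = 0.00232) and the LPS co-receptor gene *Cd14* (-0.73 ± 0.17, adjusted p = 0.0138) were among the lower ones. The interaction was called negative for 9 of the 25 targets and positive for 0, where 2.68% of all tested genes were called negative, and DESeq2 called 12 negative and 0 positive. *Lyz2*, *Cybb* and *Cd14* are also abundant in monocytes and neutrophils, whose marker sums were higher in miKO-tFCI, and the part of those cells was not tested.

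**Figure D5:**
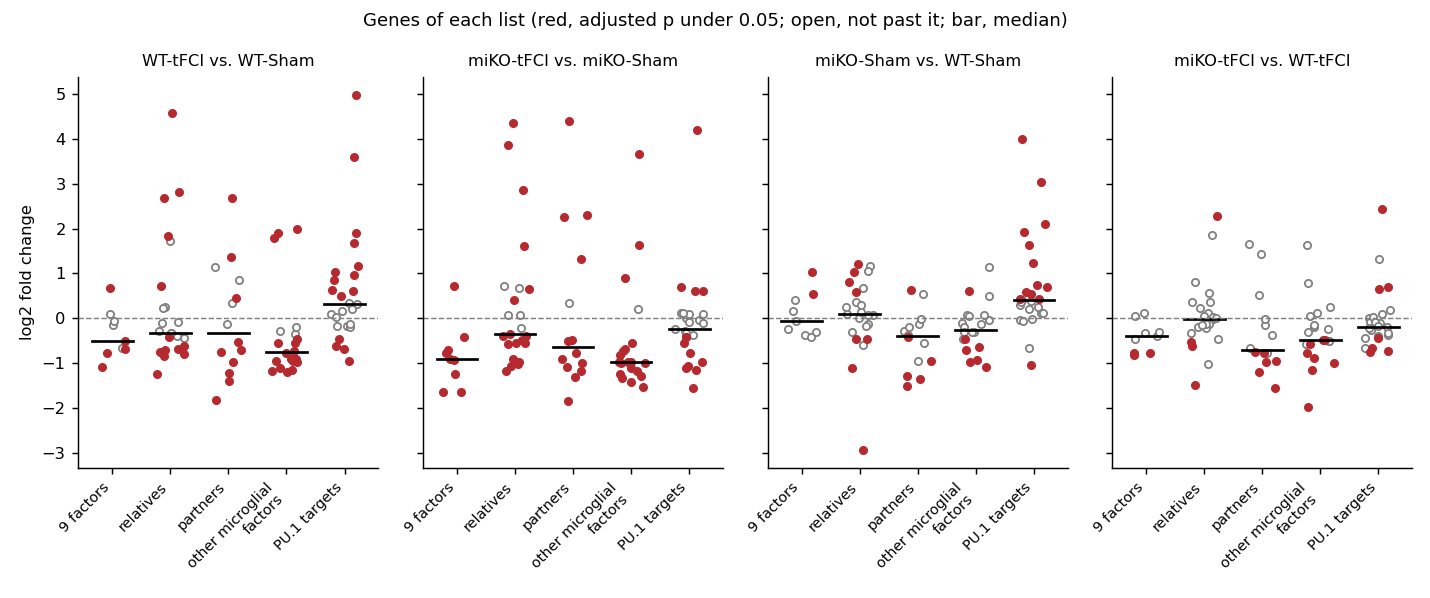
Log2 fold change of the 9 factors and of 4 related gene lists in 4 comparisons, 1 point per gene, red where the adjusted p is under 0.05, with a bar at the median of the list. The other microglial factors lie mostly below 0 after tFCI (medians of -0.75 in WT and -0.98 in miKO), and the PU.1 targets lie mostly above 0 in miKO-Sham vs. WT-Sham (median 0.42).

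The gene whose pattern over the 12 libraries was most like that of each factor was found by the root mean square difference of centred log2 CPM after removal of the batch difference, over all tested genes. *Irf8* was closest to *Cnppd1* (0.066), *Spi1* to *Shkbp1* (0.082), *Mef2a* to *Smg1* (0.093) and *Maf* to *Mfng* (0.11). *Mef2c* was closest to *Dock10* (0.126), *Bhlhe41* to *Rab35* (0.130), *Runx1* to *Bach1* (0.134), *Cebpb* to *Ckap5* (0.140) and *Cebpa* to *Ssh2* (0.187). These distances are small beside the range of each factor itself, which ran from 0.92 for *Spi1* to 2.45 for *Cebpa* on the same log2 scale, and they carry no test.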

How the data were processed

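RNA of sorted microglia was sequenced with SMART-Seq v4 paired-end libraries, a kit that does not mark strand. Whole-number counts per gene, without normalization, were deposited for each of 12 libraries after trimming and alignment by the authors. The submitters' processing notes name FastQC 0.11.9, Trim Galore, HISAT2 2.2.1, SAMtools and HTSeq 1.99.2, and the builds mm10 and GRCm38.p6. The labels name a CytoFLEX SRT as the sorter and the study's methods another instrument. Closing lines for reads on no gene were kept out of all totals; 30.7% to 38.5% of reads lay on genes. GENCODE M21 matched 55141 of 55401 gene identifiers.

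Genes were tested with the quasi-likelihood test of edgeR 4.0.16 (robust, TMM scaling) in R 4.3.3, with group and batch as terms over all 12 libraries. filterByExpr kept 16451 genes, and p-values were adjusted by Benjamini and Hochberg over them. A gene was called at an adjusted p under 0.05. Each library pooled the hemispheres of several mice, and p-values measure the spread between these pools. Named genes were all 9 factors, *Hdac3*, the nearest gene in pattern and single markers given with the marker sums. Per list and comparison, at most 3 higher and 3 lower genes were named by rule, among those called without overlap between groups. A gene that this rule names is not reported here. The 9 factors, the gene lists and the marker lists were chosen with earlier results of these data known. DESeq2 1.42.0, other scalings, filters, sample sets and omitted libraries served as alternatives. The scripts were tested on simulated data.

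Replicate numbers appear in the labels. Deviations of WT-tFCI and miKO-tFCI libraries with the same number correlated at 0.67, 0.33 and 0.32, whereas other pairs of groups gave -0.06 to 0.28. These deviations still held the batch difference, and replicate 1 is batch 1 in every group, so the correlations cannot tell pairing from batch. No stated design pairs the libraries. A fit with the replicate number as a block was run as an alternative.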

Additional observations from a re-analysis of the deposited data

How the results depend on the processing

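The number of the 9 factors called was recomputed under each alternative. WT-tFCI vs. WT-Sham and miKO-tFCI vs. miKO-Sham kept counts within 1.5 times of 5 and 9 under each alternative run. In miKO-Sham vs. WT-Sham the count of 2 became 5 with no scaling beyond library totals (an alternative added after seeing the data), 1 when a log2 fold change above 0.58 was also required, and 0 to 3 when 1 library was left out. In miKO-tFCI vs. WT-tFCI the count of 3 became 5 with only the groups compared and 5 with library totals alone. For the interaction the count of 0 became 1 with DESeq2 and 2 with no filter on low counts, and 0 to 2 when 1 library was left out. The causes were not tested. No called factor reversed its direction. With the replicate number as a block, the counts were 5, 9, 2, 3 and 0, and no call changed.

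Over all tested genes, the calls in miKO-tFCI vs. WT-tFCI went from 1635 to 753 without the batch term, 3056 with only the groups compared and 623 to 1896 with 1 library left out. The interaction calls went from 649 to 319 without the batch term, 999 with DESeq2, 1210 with no filter and 297 to 903 with 1 library left out. With 3 libraries per group, each from pooled hemispheres, small differences of the factors were not detectable, as the confidence intervals show.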
